A study of Mus musculus with 24 samples.

Results

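Expression of 10 genes of the interleukin-1 (IL-1) and interleukin-6 (IL-6) families, of 25746 genes listed in the files, was examined in the liver of mice without the major urinary protein (Mup) gene cluster. The genes code for the IL-1 receptor chains (Il1r1, Il1rap), their antagonist (Il1rn), the ligand IL-18 and its binding protein (Il18, Il18bp), the adaptor Myd88, the IL-6 receptor chains (Il6ra, Il6st), and the transcription factor and feedback inhibitor downstream of them (Stat3, Socs3). They were chosen by family, with earlier results of these data known. Il1rap was brought in by its difference between KO and WT mice in these data, so its KO effects are given below as a description without a test.

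RNAseq libraries were made from the livers of 24 C57BL/6N mice aged 12 weeks, 1 library per mouse and 6 mice in each of 4 groups, namely male wildtype (mWT), male knockout (mKO), female wildtype (fWT) and female knockout (fKO). KO mice were homozygous for a CRISPR/Cas9 deletion of the whole Mup cluster, the line went back to 1 male founder, and WT mice were littermates. No group was given a drug. All mice were kept on chow with free access, and per the study's methods they were fasted for some hours and scanned under isoflurane anaesthesia just before the livers were taken. Total counts were between 15361901 and 26261394 per mouse, at which 3 counts equal at most 0.195 CPM (counts scaled to the library size). The sum of the 22 Mup genes made up 1.7 to 3.68% of the counts in mWT and 0.344 to 0.555% in fWT mice. In KO mice 3 of 12 libraries held any Mup read, with 11 reads at most. Hepatocyte transcripts dominated all groups, with Alb, the gene of serum albumin, between 71911 and 126053 CPM.

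IL-1 binds its receptor chain encoded by Il1r1, which then recruits the accessory chain encoded by Il1rap, and the pair signals through Myd88 to the transcription factor NF-kappaB. The antagonist encoded by Il1rn occupies the same receptor without this recruitment, and the secreted protein encoded by Il18bp captures IL-18, a further cytokine of the family. IL-6 binds the chain encoded by Il6ra and signals through gp130, the product of Il6st, to STAT3, which switches on acute phase genes in hepatocytes and Socs3, an inhibitor of the same pathway.

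Each of the 10 genes passed the filter on low counts (0.66 CPM or more in 6 or more libraries). Expression per length, as CPM per kb of exon, was highest for Il6st in mWT (16.9 ± 1.16, SD, n = 6), followed by Il1rap (15.8 ± 1.03). These neighbours lay within their spread, and so did Il1r1 (13.6 ± 5.35), Il6ra (12.8 ± 4.47) and Il18 (11.9 ± 1.29) among themselves. Stat3 (9.01 ± 1.13 CPM per kb), Myd88 (4.6 ± 0.344), Il18bp (2.35 ± 0.463), Socs3 (1.55 ± 0.713) and Il1rn (0.215 ± 0.0839) followed in this order. Myd88 stood clear of its neighbours on both sides, whereas the SD ranges of Socs3 and Il18bp overlapped. In fWT mice the lowest-ranked gene was again Il1rn, at 0.754 ± 0.201 CPM per kb. The level of Il1rap depended on the gene model. Its exons cover 11360 bp together but 4520 bp in the longest transcript, and with the latter it reached 39.7 CPM per kb in mWT and ranked 1 in every group.

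**Figure D1:**
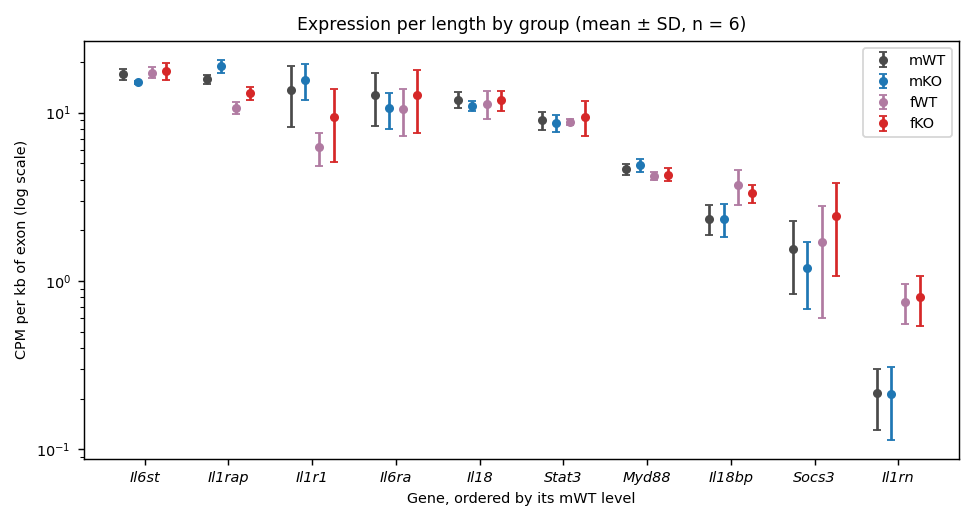
Expression of the 10 genes in CPM per kb of exon on a log axis, as mean ± SD of 6 mice per group, with genes ordered by their mWT level. Il6st and Il1rap lie highest in mWT and fKO, Il18 ranks above Il1rap in fWT and Il1r1 above Il6st in mKO mice, and Il1rn lies lowest in every group, with higher points in females (0.754 in fWT and 0.803 in fKO) than in males (0.215 in mWT and 0.212 in mKO).

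Il1rap (ENSMUSG00000022514, chr16:26581704-26730117, plus strand, GRCm38) ranged in mWT mice from 165.3 over a median of 177.7 to 197.4 CPM. The mKO mice ranged from 195.7 over 209.0 to 248.1 CPM. All 6 mKO mice lay above the mWT median, and the groups touched only where the lowest mKO mouse fell below the highest mWT mouse. In fWT mice Il1rap ranged from 112.6 over 119.4 to 140.4 CPM, and in fKO mice from 137.2 over 144.1 to 171.5 CPM. All 6 fKO mice were above the fWT median, with a slight overlap of the groups. On the log2 scale the difference between KO and WT was 0.26 in males (SE 0.0718, 95% interval 0.11 to 0.4) and 0.27 in females (SE 0.0719, 95% interval 0.12 to 0.42), that is 1.19-fold and 1.21-fold. Because Il1rap was chosen by this difference in the same mice, these values may overstate it, and the intervals do not serve as a test. The male effect minus the female effect was -0.02 (95% interval -0.22 to 0.19).

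The 250 bases up to the start of Il1rap (RefSeq, GRCm38.p6, chr16:26581455-26581704, plus strand) are shown because Il1rap was chosen by its KO difference. They hold none of the motif letters searched here.
Il1rap: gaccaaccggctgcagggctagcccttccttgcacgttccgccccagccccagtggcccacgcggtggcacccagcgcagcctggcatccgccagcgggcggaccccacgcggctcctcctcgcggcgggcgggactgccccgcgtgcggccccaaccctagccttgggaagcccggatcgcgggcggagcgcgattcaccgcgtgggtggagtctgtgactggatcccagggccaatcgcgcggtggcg

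**Figure D2:**
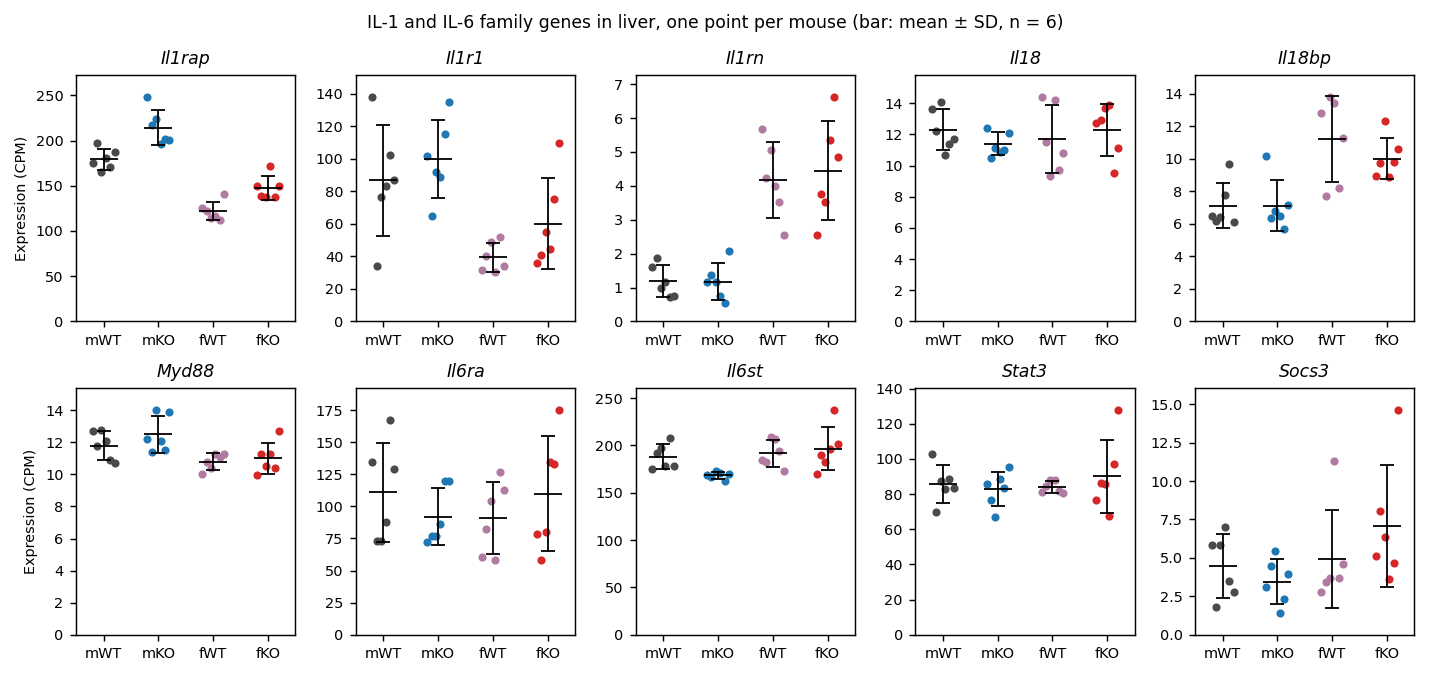
Expression of each gene in CPM, with 1 point per mouse, in mWT, mKO, fWT and fKO mice (6 each), and bars for mean ± SD, with axes starting at 0. Il1rap is higher in males and, within each sex, in KO mice, whereas the Il1rn points of all 12 males lie below those of all 12 females.

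Whether loss of the cluster went along with a change of the other 9 genes was tested in each sex with edgeR's quasi-likelihood test and Benjamini-Hochberg adjustment over 12330 genes, a gene counting as changed at an adjusted p-value under 0.05. In males 0 of the 9 genes changed, where 0.211% of all genes did (26 genes), and in females 0 of 9, where 0.0892% did (11 genes). With the deleted Mup genes removed before the fit, only 2 genes of all were called in males and 0 in females. The male and female effects differed for 0 of 9, against 0.00811% of all genes. At an unadjusted p-value under 0.05 there was 1 gene in males, 1 in females and 0 for the difference, where all genes gave 10.6%, 4.87% and 5.96%. At an unadjusted p-value under 0.01 there were 0 genes in each of these comparisons, where all genes gave 3.52%, 0.876% and 1.16%. DESeq2 also called 0 of 9 in each comparison (without an adjusted p-value for 3 of the 9 in males), with 1 gene each at an unadjusted p-value under 0.05. In simulated counts, with 100 genes each changed by 0.5 and 1 on the log2 scale in males, the test recovered 51% and 88% of them. Differences of this size or smaller could thus be missed. The simulated counts held more changed genes than were called here, and with fewer changed genes the adjustment is stricter. The shares may therefore be too high for these mice, and no change was simulated in females. These shares are averages over genes drawn at random. For Socs3 (SE 0.417 for the male KO effect), Il1rn (0.313), Il1r1 (0.284) and Il6ra (0.273), larger differences could be missed too.

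The gene at an unadjusted p-value under 0.05 in males was Il6st (ENSMUSG00000021756, chr13:112464070-112510086, plus strand). It ranged from 175.4 over 185.5 to 207.6 CPM in mWT and from 162.9 over 169.3 to 173.0 CPM in mKO mice. The groups did not overlap, which held for 1.09% of all genes, and the mKO mice were uniform, with an SD of 3.57 CPM. The log2 difference was -0.16 (SE 0.0694, 95% interval -0.3 to -0.02), but with edgeR's adjusted p = 0.411 it did not pass. In females Il6st averaged 191.8 ± 14.3 CPM in fWT and 196.3 ± 22.8 CPM in fKO mice (log2 difference 0.03, 95% interval -0.11 to 0.18), with overlapping groups. The difference between the sexes in this effect was -0.19 (95% interval -0.39 to 0.01, edgeR adjusted p = 0.844).

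In females the gene at an unadjusted p-value under 0.05 was Il1r1 (ENSMUSG00000026072, chr1:40225080-40317257, plus strand), the signalling IL-1 receptor chain. It ranged from 30.5 over 37.3 to 51.8 CPM in fWT and from 36.1 over 49.7 to 109.5 CPM in fKO mice. These groups overlapped, as did those of the other 8 genes in females (0.349% of all genes did not), and 5 of 6 fKO mice lay above the fWT median. The log2 difference of 0.61 (SE 0.287, 95% interval 0.01 to 1.2) did not pass (edgeR adjusted p = 0.929). It was 0.35 without fKO mouse 6, which had the highest value. In males Il1r1 ranged from 33.8 to 138.0 CPM in mWT and from 65.0 to 135.2 CPM in mKO mice, with a log2 difference of 0.2 (95% interval -0.39 to 0.79), which was 0.03 without mWT mouse 2, 0.09 without mKO mouse 6 and 0.38 without mWT mouse 1.

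For the other 7 genes the KO effects were between -0.38 and 0.08 on the log2 scale in males and between -0.16 and 0.5 in females. The intervals were narrow for Myd88, the adaptor, with 0.08 in males (95% interval -0.07 to 0.24) and 0.03 in females (-0.13 to 0.18), and for Il18, with -0.11 (-0.34 to 0.11) and 0.07 (-0.15 to 0.3). Stat3 differed by -0.05 (-0.28 to 0.18) in males and 0.1 (-0.13 to 0.33) in females. They were wide for Socs3, with -0.38 (-1.24 to 0.48) in males and 0.5 (-0.31 to 1.31) in females, and Il6ra, with -0.27 (-0.84 to 0.3) and 0.27 (-0.29 to 0.84). Single mice moved these values. The effect of Socs3 was 0.17 in females without fKO mouse 6 and 0.95 without fWT mouse 4, and -0.2 in males without mWT mouse 4. That of Il6ra was 0.09 in females without fKO mouse 6 and -0.12 in males without mWT mouse 5. Il1rn differed by -0.01 (-0.65 to 0.63) in males and 0.1 (-0.41 to 0.6) in females, and Il18bp by 0.01 (-0.32 to 0.33) and -0.16 (-0.47 to 0.15). Over the 9 tested genes the median effect was -0.05 in males and 0.1 in females, against medians of -0.0021 and -0.0026 over all genes.

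**Figure D3:**
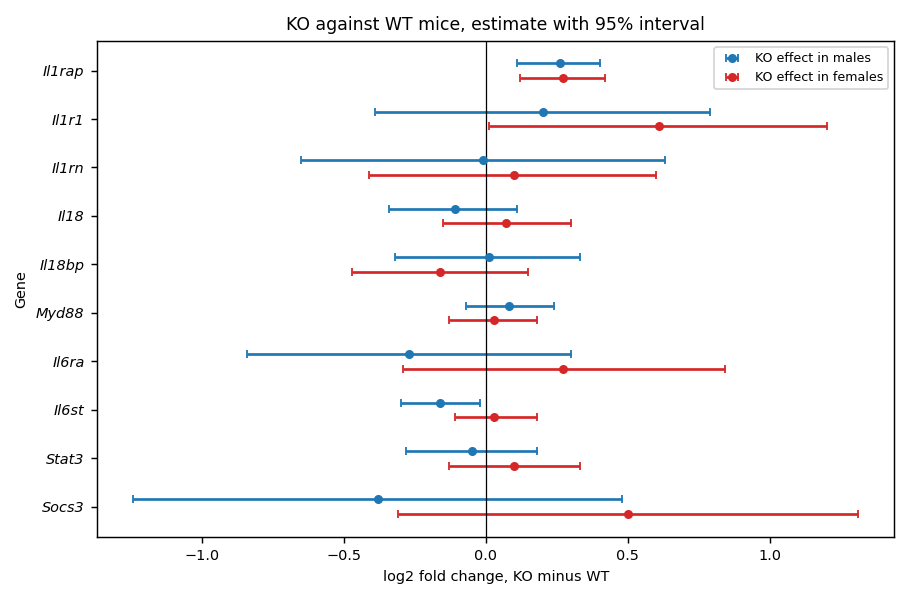
Estimated log2 fold change of KO against WT mice for each gene, with 95% intervals, in males (blue) and females (red). Il1rap, shown as a description since it was chosen by this difference, lies at 0.26 and 0.27, and of the 9 genes tested the intervals cross 0 except those of Il6st in males (-0.3 to -0.02) and Il1r1 in females (0.01 to 1.2), neither of which passed the adjusted threshold.

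Several of the genes differed between the sexes. In WT mice 4 of 10 genes passed the test, where 17.3% of all genes did. Il1rap and Il1r1 were higher in males (8.51% of all genes were called in this direction) and Il1rn and Il18bp were higher in females (8.81%). In KO mice 4 of 10 passed, against 14.4% of all genes. These were Il1rap, higher in males (7.26% of all genes), and Il1rn, Il18bp and Il6st, higher in females (7.13%). Unadjusted p-values were under 0.01 for 4 genes in WT and 4 in KO mice (all genes 18.2% and 15.9%), and under 0.05 for 4 and 7 (30.6% and 28.4%). DESeq2 called the same 4 genes in WT and the same 4 in KO mice. Il1rap and Il1rn had groups without overlap in both genotypes, against 7.7% of all genes in WT and 7.26% in KO mice.

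The male level of Il1rap exceeded the female level in every mouse within a genotype. The log2 difference was 0.56 in WT (SE 0.0721, edgeR adjusted p = 2.78e-06) and 0.54 in KO mice (SE 0.072, edgeR adjusted p = 4.9e-06), that is 1.47-fold and 1.46-fold. Il1r1, the partner chain, averaged 86.8 ± 34.0 CPM in mWT and 39.5 ± 8.99 CPM in fWT mice, a log2 difference of 1.14 (SE 0.289, edgeR adjusted p = 0.00857). In 5 of 6 mWT mice it lay above the fWT median, and mWT mouse 2 (33.8 CPM) lay among the fWT values. In KO mice Il1r1 had a median of 96.7 CPM in males and 49.7 CPM in females with overlapping ranges, and a log2 difference of 0.73 (95% interval 0.13 to 1.32, edgeR adjusted p = 0.0966). It passed without fKO mouse 6 (0.98, edgeR adjusted p = 0.0171) or without mWT mouse 2 (edgeR adjusted p = 0.0488).

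Il1rn (ENSMUSG00000026981, chr2:24336853-24351494, plus strand), the gene of the receptor antagonist, was the least expressed of the 10, with 8 to 35 reads per male library and 48 to 169 per female library. It ranged from 0.732 over 1.08 to 1.87 CPM in mWT and from 2.54 over 4.12 to 5.68 CPM in fWT mice. In mKO mice it ranged from 0.53 over 1.16 to 2.08 CPM and in fKO mice from 2.55 over 4.31 to 6.62 CPM. Every male lay below every female. The log2 difference was -1.81 in WT (SE 0.28, edgeR adjusted p = 3.9e-05) and -1.91 in KO mice (SE 0.275, edgeR adjusted p = 1.54e-05), so females had 3.49 and 3.76 times the male level.

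Il18bp (ENSMUSG00000070427, chr7:102014885-102018690, minus strand) averaged 7.12 ± 1.4 CPM in mWT and 11.2 ± 2.65 CPM in fWT mice, a log2 difference of -0.66 (SE 0.155, edgeR adjusted p = 0.00372). All 6 mWT mice lay below the fWT median, although the ranges overlapped. In KO mice it ranged from 5.7 over 6.66 to 10.2 CPM in males and from 8.89 over 9.78 to 12.3 CPM in females (log2 difference -0.49, SE 0.154, edgeR adjusted p = 0.032). This call was lost in 7 of the 24 fits that left out a mouse, with adjusted p-values up to 0.0804. The ligand gene Il18 (ENSMUSG00000039217, chr9:50554827-50581840, plus strand) differed by 0.07 (95% interval -0.15 to 0.3) in WT and -0.11 (-0.34 to 0.11) in KO mice.

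Some markers of non-parenchymal cells also differed between the sexes. Of all genes, 8.51% were called higher and 8.81% lower in males in WT mice, and 7.26% and 7.13% in KO mice. The summed level of 8 Kupffer cell and macrophage markers ranged from 81.8 to 164.8 CPM in mWT and 148.6 to 273.3 CPM in fWT mice, and 5 of the 8 (Clec4f, Cd5l, Vsig4, Csf1r, Cd68) were lower in mWT. In KO mice it ranged from 77.5 to 217.2 CPM in males and 122.9 to 219.6 CPM in females, and 0 of 8 passed edgeR's test (2 at an unadjusted p-value under 0.05). The median log2 difference of the 8 was -0.79 in WT and -0.45 in KO mice. Beside it, Il1rn differed by -1.81 and -1.91, and Il18bp by -0.66 and -0.49. Stellate cell markers were lower in males for 2 of 5 genes in WT and 3 of 5 in KO mice, and sinusoidal endothelial markers for 2 of 5 and 1 of 5. Of 6 neutrophil markers 0 passed the filter, with sums of at most 1.72 CPM and Ly6g at 0 in all 24 libraries. Of 7 lymphocyte markers 2 passed the filter and of 4 cholangiocyte markers 2, and none of these was called. Red blood cell markers were higher in males for 1 of 4 genes in WT and 4 of 4 in KO mice. The gene in WT was Alas2 (131.6 CPM in mWT and 12.1 CPM in fWT mice), and the globin genes did not pass there. Of 4 hepatocyte markers 1, Ttr, was higher in male KO mice. For the KO effects 0 markers of any list passed edgeR's test, with 3 (Ttr, Lrat and Hbb-bs) in males and 0 in females at an unadjusted p-value under 0.05. In whole liver, fewer cells of a type and less RNA per cell cannot be told apart, and the part of these cells in the results for Il1rn and Il18bp was not tested.

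Of the IL-6 chain genes, Il6ra (ENSMUSG00000027947, chr3:89864059-89913196, minus strand) averaged 110.9 ± 38.6 CPM in mWT and 90.9 ± 28.3 CPM in fWT mice, and varied up to 3.0-fold among mice of a group. The sex differences were 0.29 (95% interval -0.28 to 0.85) in WT and -0.26 (-0.82 to 0.31) in KO mice. Il6st was lower in mKO than in fKO mice, by -0.22 on the log2 scale (SE 0.0694, edgeR adjusted p = 0.0324), and all 6 mKO mice lay below the fKO median. In WT mice the difference was -0.03 (95% interval -0.17 to 0.11). The call in KO mice was lost without a filter on low counts (edgeR adjusted p = 0.0583), with only the groups compared in the fit (0.0681), and in 5 of the 24 fits that left out a mouse.

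Stat3 (ENSMUSG00000004040, chr11:100885098-100939540, minus strand) averaged between 82.9 and 90.2 CPM in the 4 groups and differed between the sexes by 0.03 (95% interval -0.2 to 0.26) in WT and -0.12 (-0.35 to 0.11) in KO mice. Socs3 (ENSMUSG00000053113, chr11:117966079-117970047, minus strand), its target and inhibitor of the pathway, ranged from 1.43 over 3.5 to 5.43 CPM in mKO and from 3.63 over 5.72 to 14.6 CPM in fKO mice. All 6 mKO mice lay below the fKO median, but the ranges overlapped and the log2 difference of -1.02 (95% interval -1.86 to -0.18) did not pass (edgeR adjusted p = 0.0992). In WT mice it was -0.14 (-0.97 to 0.7). Myd88 (ENSMUSG00000032508, chr9:119335934-119341411, minus strand) was 0.13 (-0.03 to 0.29) higher in mWT and 0.18 (0.03 to 0.34, edgeR adjusted p = 0.109) higher in mKO than in the females of the same genotype, values that did not pass.

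**Figure D4:**
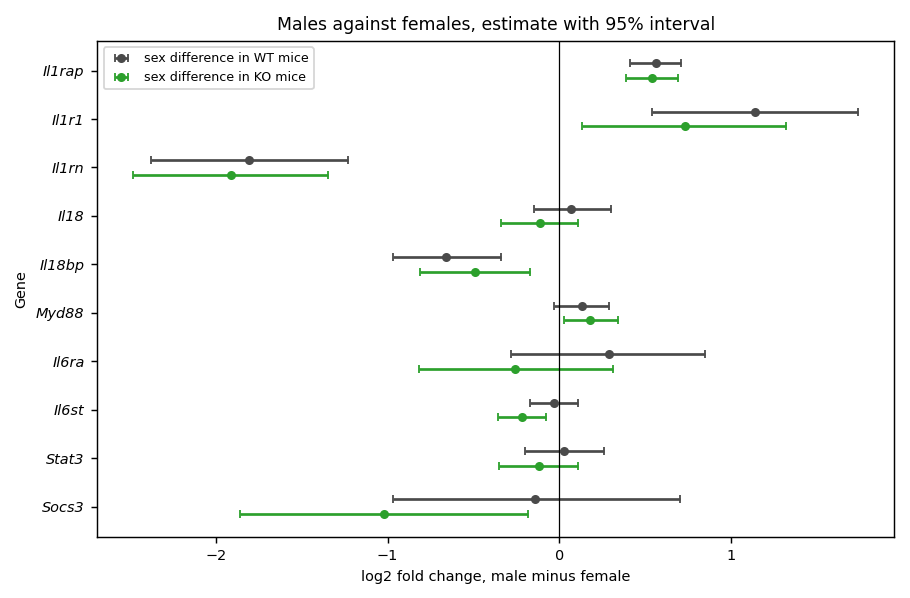
Estimated log2 fold change of males against females for each gene, with 95% intervals, in WT (dark) and KO (green) mice. Il1rap lies right of 0 (0.56 and 0.54) and Il1rn left of 0 (-1.81 and -1.91) in both genotypes.

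The neighbouring genes of both pathways were described by 5 lists of 91 genes, of which 71 passed the filter. For the KO effects edgeR, like DESeq2, called 0 of the 71 in males, females and their difference, with 10, 5 and 7 at an unadjusted p-value under 0.05 (14.1, 7.04 and 9.86%, where all genes gave 10.6, 4.87 and 5.96%). Between mWT and fWT mice 17 of 71 passed (23.9%, against 17.3% of all genes, 6 higher and 11 lower in males), and between mKO and fKO mice 12 of 71 (16.9%, against 14.4%, 2 higher and 10 lower).

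Of the IL-1 family ligands and receptors 4 of 15 passed the filter, and these were Il1a, Il1b, Il33 and Sigirr, listed here after their values were seen. Sigirr, an inhibitory receptor of the family, was lower in males in WT (8.01 ± 1.25 against 12.7 ± 1.56 CPM, log2 difference -0.67) and KO mice (-0.34). The median of the 4 was -0.58 in WT and -0.42 in KO mice. Of 22 genes of IL-1 and IL-18 signalling 21 were tested, and in WT mice 6 were higher and 2 lower in males (8.51% and 8.81% of all genes). Ikbkg, the regulatory subunit of the kinase that frees NF-kappaB, was higher by 0.53, and Tab3, an adaptor of the upstream kinase, by 0.36. Nfkb2, an NF-kappaB subunit, differed by -0.54 and Nfkbiz, an inducible regulator of NF-kappaB, by -0.51. In KO mice 3 of the 21 passed (14.4% of all genes), with Nfkbiz at -1.01, Ikbkg at 0.35 and Irak1, a kinase recruited by Myd88, at 0.24. The median of the 21 was 0.0 to 2 decimals in both genotypes.

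Of 17 IL-6 family ligands and receptors 10 were tested and 0 passed edgeR's test for either sex difference (all genes 17.3% in WT and 14.4% in KO mice). At an unadjusted p-value under 0.05 there were 2 in WT and 0 in KO mice (all genes 30.6% and 28.4%). The median of the 10 was -0.16 in WT and -0.08 in KO mice. Of 15 tested JAK and STAT genes 3 were lower in mWT mice (8.81% of all genes), among them Socs2, an inhibitor of growth hormone signalling (-1.55), and Pias1, a SUMO ligase (-0.22). In KO mice 0 of the 15 passed (14.4% of all genes), with 1 at an unadjusted p-value under 0.05 (28.4% of all genes).

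The 21 acute phase targets, mostly genes of plasma proteins that hepatocytes release in inflammation, were all tested. Of these 21 genes 5 were lower in mWT and 8 lower in mKO mice than in the respective females (8.81% and 7.13% of all genes). In this test 0 were higher (8.51% and 7.26% of all genes). Their median log2 sex difference was -0.25 in both genotypes. Among the called genes the largest in WT mice were those of Fgl1, a secreted fibrinogen-like protein (-1.36), Apcs, serum amyloid P (-0.83), Lbp, a lipopolysaccharide carrier (-0.79), and Itih4, a plasma protease inhibitor (-0.66). In KO mice, again among the called genes, Fgl1 differed by -1.81, Lcn2, an iron-siderophore binding lipocalin, by -1.7, Apcs by -1.08 and Orm2, an acid glycoprotein, by -1.0. Stat3 itself did not pass in either comparison. For the KO effects 0 of the 21 genes passed in males or females. Unadjusted edgeR p-values were under 0.05 for 5 genes in males and 3 in females (all genes 10.6% and 4.87%). Each of these was higher in KO mice. The median KO effect of the 21 was 0.06 in males and 0.18 in females.

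How the 10 genes varied between mice of a group was described by correlating their deviations from the group means on the log2 (CPM + 1) scale over 24 mice. Of 45 pairs, 2 passed after Benjamini-Hochberg adjustment in permutation tests within the groups (100000 permutations), and both hold Il1r1. How often pairs of other genes reach such values in these livers was not examined, so nothing particular to these genes can be read from them. Il1r1 and Stat3 had r = 0.77 (permutation p = 0.00023, adjusted p = 0.00517) and rho = 0.73 (permutation p = 0.0005, adjusted p = 0.0115). Without the 2 mice farthest from the median of Il1r1 (fKO mouse 6 and mWT mouse 2), r was 0.65. Il1r1 and Il6ra had r = 0.73 (permutation p = 0.00021, adjusted p = 0.00517) and rho = 0.71 (permutation p = 0.00051, adjusted p = 0.0115), and r = 0.68 without the same 2 mice.

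Within one sex both pairs kept the size of r, with 0.79 in males and 0.78 in females for Il1r1 and Stat3, and 0.71 and 0.76 for Il1r1 and Il6ra. With 12 mice the lowest adjusted p-value was 0.264 in males and 0.126 in females in the same permutation tests, so neither pair passed. Myd88 and Socs3 had r = 0.61 (permutation adjusted p = 0.0531). Il1rap had r of -0.36 with Il1r1 and -0.44 with Stat3, which did not pass (permutation adjusted p = 0.476 and 0.384). The points of a pair come from the same libraries and share their depth.

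**Figure D5:**
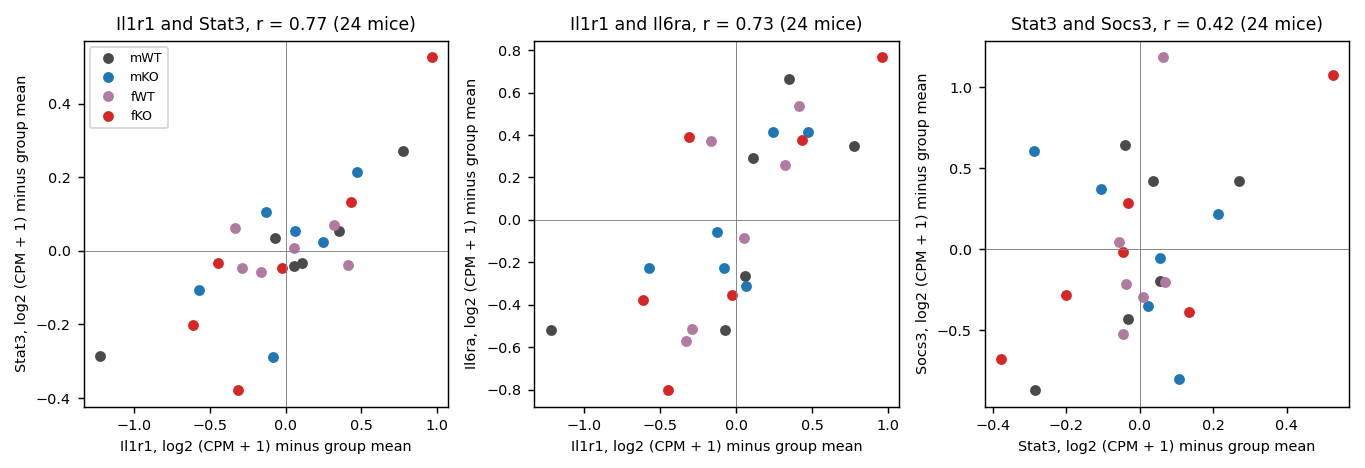
Deviation of each of 24 mice from its group mean in log2 (CPM + 1), for Il1r1 against Stat3, Il1r1 against Il6ra and Stat3 against Socs3, coloured by group. The first pairs rise together (r = 0.77 and 0.73), whereas Stat3 and Socs3 scatter more widely (r = 0.42).

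The genes most like Il1rap in this variation were Sept7 (r = 0.78 over 24 mice), Cask (0.74), Ddx50 (0.74), Nudt12 (0.71) and Sec24a (0.71). Their log2 KO effects in males and females were 0.14 and 0.14 for Sept7, a septin of the cytoskeleton, -0.12 and 0.13 for Cask, 0.01 and 0.13 for Ddx50, 0.01 and 0.07 for Nudt12, and -0.11 and 0.1 for Sec24a. Most like Socs3 were Zc2hc1c (r = 0.81), Phlda1 (0.79), Usp27x (0.77), Foxa2, a hepatocyte transcription factor (0.74), and Sh2b2 (0.7). These are the highest values of a search over all genes, which can be large without any link, and they were not tested.

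Windows from 250 bases before to 50 bases after the annotated start (RefSeq, GRCm38.p6) were found for all 10 genes, 13 windows in total. The STAT letters TTCNNNGAA, which read the same on both strands, occurred in the windows of Myd88 and Socs3, and in 8.3% of 32851 windows of the genome. The stricter letters TTCCNGGAA, a subset of the former, occurred in 0 of the 13 and in 1.15% of all windows. The kappaB consensus, searched on both strands, occurred in 1 window of Il1r1, that of its downstream start, and in 4.51% of all windows. The matches are shown with 10 bases on either side and the motif in capitals. They lie at chr9:119340046-119340074 (Myd88, minus strand, from 46 bases before the start), chr11:117969502-117969530 (Socs3, minus strand, from 154 bases before) and chr1:40266344-40266373 (Il1r1, plus strand, from 232 bases before). These letters describe the windows and say nothing of binding.
Myd88: agggcggagcTTCTCGGAAagcgaaagaa
Socs3: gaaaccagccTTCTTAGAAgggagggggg
Il1r1: cagggattttGGAATGCCCCcaaggagatg

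Some of the genes share exon sequence with a gene on the other strand. Myd88 shares 290 bp (11.3% of its exons) with Acaa1a, Il18bp 80 bp (2.6%) with Numa1 and Stat3 72 bp (0.8%) with Stat5a. Il1rap shares 552 bp (4.9%) and Il6ra 242 bp (2.8%) with antisense genes for which no counts were listed. The libraries were stranded, but the strand setting of the counting is not given in the sources used here, so reads in these stretches are uncertain.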

How the data were processed

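Liver RNA was sequenced in 24 mice, 6 per group, with groups and mouse numbers taken from the labels. The values the authors deposited are raw read counts per Ensembl gene. They come from a stranded mRNA preparation, read in a single multiplexed run as 100 bp single-end reads. Tools were bcl2fastq 2.19, fastp 0.20, STAR 2.7a and edgeR 3.28.1 per the submitters' processing notes, with GRCm38.p6 as genome, and featureCounts for counting per the methods. Annotation release and strand setting are not given in the sources used here. Of 25746 genes listed, 25635 were matched to GENCODE M21 symbols and coordinates and 111 were not.

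Total counts were 15361901 to 26261394 per mouse. Floors cover counting error only. All pairs of mice within a group differed by more than sampling noise (lowest chi-square per gene 7.67). The 12330 genes reaching 0.66 CPM in 6 or more of the 24 libraries were scaled by TMM and fitted in edgeR 4.0.16 (R 4.3.3) with robust quasi-likelihood and 1 mean per group over all mice. The contrasts were KO against WT in each sex, the difference of these effects, and male against female in each genotype. P-values were adjusted by Benjamini-Hochberg over all genes. DESeq2 1.42.0, other size factors, no filter, non-robust or edgeR 4 dispersions, removal of the Mup genes, the mouse number as a block, only the groups compared and leaving out each mouse were alternatives. The procedure was tested on simulated data with 12255 genes, of which 100 each were changed by 0.5 and 1 (log2) in males, and 5 other genes were called falsely.

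The 10 genes, the pathway lists and the marker lists were chosen with earlier results of these data known. Named from the pathway lists are the called genes, up to 4 per list and contrast with the largest log2 difference, and the 5 genes most like Il1rap and the 5 most like Socs3. The values of 1 gene of these lists are not reported here.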

Additional observations from a re-analysis of the deposited data

Results flagged for a closer look

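In 3 of 40 groups of 6 mice, 1 mouse stood apart from the others by Dixon's criterion (gap over range above 0.625), where chance would flag about 2.0. Il1rap was highest in fKO mouse 4 at 171.5 CPM, and the next mouse had 149.2 CPM. Without this mouse the Il1rap KO effect in females was 0.23 on the log2 scale. Il18bp was highest in mKO mouse 1 at 10.2 CPM, followed by 7.13 CPM. Socs3 was highest in fWT mouse 4 at 11.3 CPM, followed by 4.58 CPM, and without this mouse the Socs3 sex difference in WT mice was 0.31 in place of -0.14 and did not pass edgeR's test.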

How the results depend on the processing

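Il1rap, Il1r1, Il1rn and Il18bp were called between mWT and fWT mice under every alternative and in every fit that left out a mouse, and the KO comparisons called 0 of 9 genes throughout. Between mKO and fKO mice the count was 2 to 5 when a mouse was left out (2 without mKO mouse 2, 4 or 5) and 5 with the mouse number as a block, which added Il1r1 (0.76, edgeR adjusted p = 0.0493). The mouse numbers are the replicate numbers of the labels. Correlations of same-numbered mice were -0.379 to 0.309, over 0.1 in 10 of 36 pairs. Differently numbered mice were not compared, so this check cannot decide on pairing. Litter and cage were not in the fits. Under the block the KO effect of Il18bp in males was -0.01 in place of 0.01, and no other call of the 10 genes changed. Pathway genes called between mKO and fKO mice were 7 without a filter and 7 to 13 with a mouse left out (7 without fKO mouse 6 or mKO mouse 2). Pairs of correlated genes were 0 within males only and 0 within females only.

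Of 1587 recomputed values of the 10 genes, 1539 kept direction and call, 14 lost and 3 gained the call, and 31 changed sign. With a mouse left out, the log2 values that changed sign ranged in the male KO effect from -0.23 to 0.16 (Il1rn), -0.13 to 0.11 (Il18bp) and -0.1 to 0.01 (Stat3). In the female KO effect they ranged from -0.06 to 0.21 (Il1rn), -0.02 to 0.06 (Myd88), -0.03 to 0.07 (Il6st) and -0.02 to 0.18 (Stat3), and in the difference of the effects from -0.06 to 0.03 (Il1rap) and -0.33 to 0.06 (Il1rn). The sex difference ranged in WT from -0.03 to 0.08 (Stat3) and -0.32 to 0.31 (Socs3), and in KO mice from -0.2 to 0.0 (Stat3). The cause was not tested. Over all genes the male KO effect gave 26 calls, 142 with DESeq2, 2 without the Mup genes and 49 with only the groups compared. The female effect gave 11, 18 with DESeq2 and 0 without the Mup genes, and the difference gave 1, and 10 with DESeq2. DESeq2 gave no adjusted p-value for Il1rn, Il18bp and Socs3 in males. Depth limits Il1rn, with 8 to 169 reads per library.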
